A study of Mus musculus with 75 samples.

Results

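Genomic imprinting leaves a gene transcribed mainly from the copy inherited from one parent, through DNA methylation set down in the germ line and kept in the embryo, and the genes concerned often sit together in domains that share a control region. The genes described here are 45 imprinted mouse genes outside the Igf2 growth axis (Igf2, H19, Igf2r and Grb10 were left to a comparison list), taken as a fixed list of symbols. All 45 were found among the 52535 entries of the receptor knockout table, the 52535 of the receptor overexpression table and the 52636 of the enhancer deletion table. They fall into 20 domains, 9 of which hold more than 1 listed gene, such as the Peg10, Peg3, Snrpn, Kcnq1ot1 and Dlk1-Dio3 domains. Embryonic stem cells kept in culture are known for unstable imprints, which differ between lines and subclones, and retinoic acid (RA), which acts through heterodimers of RAR and RXR receptors, drives their exit from pluripotency. The counts are summed over both parental copies, so they give the total transcript of each gene and not its imprint.

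All RNA-seq libraries came from E14 mouse embryonic stem cells, taken out of LIF and the 2 inhibitors of the 2i medium and given 2 µM RA for 24 h. The mutant groups were Rarα-KO, Rxrα-KO and the double knockout RARX-DKO, set against the wild type WT (RARX), with 2 libraries each; Rarα-OE and Rxrα-OE, which overexpress a receptor, set against the vector control V-OE, with 2 libraries each; and Cyp26-E1-KO and Cyp26-E2-KO, which lack an enhancer of the Cyp26 genes for RA breakdown, set against WT (Cyp26), with 3 libraries each. The labels call the replicates biological, and do not say whether a mutant line is 1 clone or what drives the overexpression. In the deletion table the mutant columns carry the codes Ac and b, which were read as Cyp26-E1-KO and Cyp26-E2-KO. That match is unsure, as is the reading of the Cyp26-E2 samples as deletions, since their titles lack the word.

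Libraries held 7408691 to 13052102 counts in the knockout table, 7835519 to 11453063 in the overexpression table and 28397794 to 33601996 in the deletion table. Rara averaged 4.86 CPM (the count divided by the scaled library total, edgeR's depth-corrected unit) in Rarα-KO and 6.05 CPM in RARX-DKO, against 104 CPM in WT (RARX), while Rxra averaged 17.2 CPM in Rxrα-KO and 20.6 CPM in RARX-DKO, against 42.1 CPM in WT (RARX). Rara reached 108 CPM in Rarα-OE and Rxra 203 CPM in Rxrα-OE, against 52.0 and 44.3 CPM in V-OE. Cyp26a1, the RA-degrading enzyme gene, averaged 49.5 CPM in Cyp26-E1-KO and 380 CPM in Cyp26-E2-KO, against 377 CPM in WT (Cyp26). All 12 naive pluripotency markers had counts, and their summed level was 2183 to 2202 CPM in Rxrα-OE against 6642 to 6811 CPM in V-OE. Of 10 fibroblast markers Fap had 0 counts in every library of each table, and the list summed to 131 to 135 CPM in Rxrα-OE and 61.4 to 64.6 CPM in Rarα-OE, against 35.3 to 35.8 CPM in V-OE, and to between 12.9 and 48.3 CPM in the other tables. Its part in the changes was not tested. Cyp26-E1-KO replicate 2 stood apart from its group, with a median absolute log2 difference of 0.234 from the other libraries of its group over 14570 genes, against 0.142 and 0.153 for those libraries.

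The promoters of 6 genes that changed below are shown, as examples of imprinted promoters that carry the letters TGCCGC, the hexamer that the zinc finger protein ZFP57 recognises when methylated. Each runs from 250 bases before to 50 bases after the transcription start, 5′ to 3′, from RefSeq on GRCm38.p6 (mm10), with TGCCGC or its reverse complement GCGGCA in capitals. Nap1l5 lies at chr6:58907077-58907376 on the minus strand. The others are on the plus strand, Mest at chr6:30737800-30738099, Plagl1 at chr10:13090582-13090881, Nnat at chr2:157559828-157560127, Mcts2 at chr2:152686898-152687197 and Meg3 at chr12:109540746-109541045.
Nap1l5: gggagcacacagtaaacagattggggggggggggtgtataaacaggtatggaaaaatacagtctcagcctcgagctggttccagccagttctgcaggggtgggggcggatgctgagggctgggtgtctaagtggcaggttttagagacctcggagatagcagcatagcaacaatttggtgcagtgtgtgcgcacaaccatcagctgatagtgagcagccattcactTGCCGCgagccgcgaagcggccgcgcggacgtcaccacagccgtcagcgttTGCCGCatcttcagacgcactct
Mest: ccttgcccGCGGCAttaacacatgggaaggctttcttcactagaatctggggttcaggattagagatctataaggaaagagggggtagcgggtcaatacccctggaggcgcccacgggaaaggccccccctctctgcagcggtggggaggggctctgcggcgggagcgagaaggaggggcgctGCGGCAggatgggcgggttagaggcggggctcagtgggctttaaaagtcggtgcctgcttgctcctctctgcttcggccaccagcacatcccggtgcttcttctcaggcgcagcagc
Plagl1: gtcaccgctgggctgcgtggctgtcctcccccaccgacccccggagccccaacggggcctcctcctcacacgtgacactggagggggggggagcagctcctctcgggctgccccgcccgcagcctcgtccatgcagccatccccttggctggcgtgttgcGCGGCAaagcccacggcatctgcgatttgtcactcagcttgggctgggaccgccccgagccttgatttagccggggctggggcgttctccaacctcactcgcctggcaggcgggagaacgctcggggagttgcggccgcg
Nnat: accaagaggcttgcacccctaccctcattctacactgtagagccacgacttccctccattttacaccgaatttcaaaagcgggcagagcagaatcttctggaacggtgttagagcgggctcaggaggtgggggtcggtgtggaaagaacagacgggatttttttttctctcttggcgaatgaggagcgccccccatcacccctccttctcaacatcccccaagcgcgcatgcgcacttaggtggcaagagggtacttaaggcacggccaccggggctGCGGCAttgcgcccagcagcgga
Mcts2: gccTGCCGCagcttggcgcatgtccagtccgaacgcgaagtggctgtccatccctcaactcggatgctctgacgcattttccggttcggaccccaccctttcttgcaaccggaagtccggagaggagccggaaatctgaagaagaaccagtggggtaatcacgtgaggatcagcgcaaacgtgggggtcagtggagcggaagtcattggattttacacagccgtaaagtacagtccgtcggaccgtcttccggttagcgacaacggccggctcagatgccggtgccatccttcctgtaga
Meg3: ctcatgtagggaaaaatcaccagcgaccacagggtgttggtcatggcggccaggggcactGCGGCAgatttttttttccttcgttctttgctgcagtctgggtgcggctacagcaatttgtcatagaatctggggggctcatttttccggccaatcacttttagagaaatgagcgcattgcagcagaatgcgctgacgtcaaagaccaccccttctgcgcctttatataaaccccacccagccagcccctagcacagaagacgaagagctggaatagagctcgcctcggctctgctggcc

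The hexamer was present in 12 of the 52 promoters (23.1%) that RefSeq's table holds for 36 of the listed genes, and in 3807 of all 32544 promoters (11.7%). Nap1l5 and the Mest promoter shown held it at 2 places each, and Plagl1, Nnat, Mcts2 and Meg3 at 1 each. Promoters of the listed genes were also richer in CpG, with a median of 15 CpG against 7 over all promoters, and some genes have several overlapping promoters, so the shares are a description. Direct repeats of AGGTCA or AGTTCA with 1, 2 or 5 bases between them, the pattern that RAR and RXR dimers recognise, were found on either strand in 0 of the 52 promoters and in 53 (0.163%) of all.

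The listed genes covered a wide range of levels. Per kilobase of exon, Slc38a4, an amino acid transporter gene, and Peg10, a retrotransposon-derived gene needed for the placenta, were the highest in each control. Slc38a4 averaged 76.6 ± 0.365 CPM per kb in WT (RARX), 68.0 ± 3.50 in V-OE and 84.6 ± 1.75 in WT (Cyp26), and Peg10 averaged 46.7 ± 0.658, 56.6 ± 2.44 and 158 ± 5.35 CPM per kb in the same groups (SD, n = 2, 2 and 3). The 3 tables were made separately, so levels are not compared between them. At the other end, Dlk1, which encodes a Notch-like membrane protein, and Rtl1, a retrotransposon-derived gene, had 0 counts in every library of each table. A filter on low counts passed 36 of the 45 genes in the knockout table, 37 in the overexpression table and 40 in the deletion table. In the knockout table the other untested genes were Airn, Asb4, Dcn, Kcnq1, Peg13, Rasgrf1 and Rian, with at most 10 counts in a library. The same genes except Airn missed the filter in the overexpression table, where the highest count was 23, for Rian in a library of Rxrα-OE. Dcn, Peg13 and Rasgrf1 missed it in the deletion table, with at most 13 counts in a library.

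**Figure D1:**
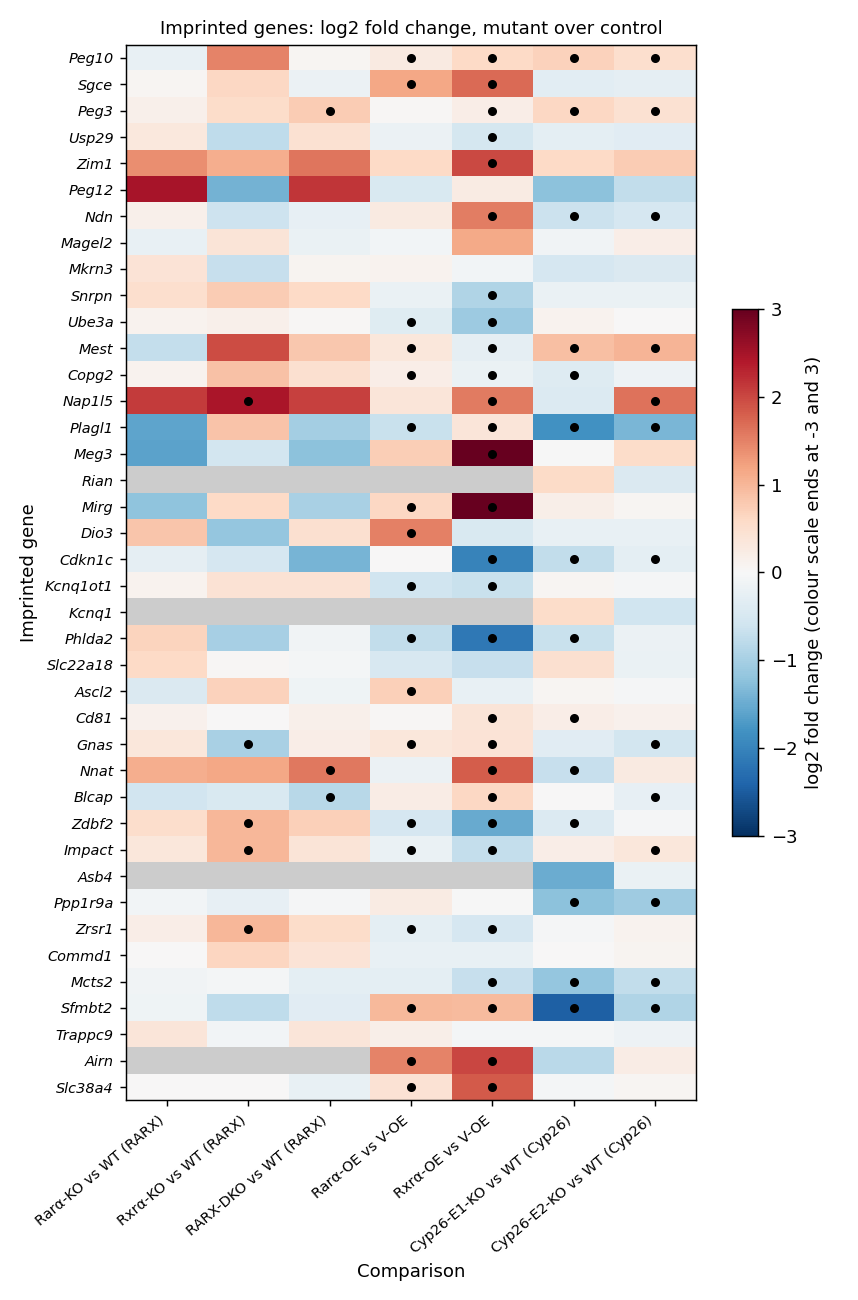
Log2 fold change of the imprinted genes tested in at least 1 table (down the page) for each mutant over its control (across), on a colour scale that ends at -3 and 3. A dot marks an adjusted p under 0.05 and grey a gene not tested; Meg3 and Mirg in Rxrα-OE (4.34 and 3.49) are the darkest red and Sfmbt2 in Cyp26-E1-KO (-2.45) the darkest blue.

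Overexpression of Rxrα came with the most called genes. Of the 37 genes tested, 28 (75.7%) passed an adjusted p of 0.05 in edgeR's quasi-likelihood test between Rxrα-OE and V-OE, against 60.2% of all 16914 genes tested. Of the 28, 16 were higher (30.9% of all genes) and 12 lower (29.3% of all genes). Their log2 fold changes (log2FC, Rxrα-OE over V-OE) ran from -2.15 to 4.34, with a median absolute value of 0.69, against 0.45 over all genes. In Rarα-OE 18 of 37 (48.6%) passed, 11 higher and 7 lower, against 28.6% of all genes (14.7% higher and 13.9% lower), with a median absolute log2FC of 0.33, against 0.23 over all genes. Both comparisons share the V-OE libraries. Under DESeq2 11 genes passed in Rarα-OE, and Ascl2, Copg2, Dio3, Kcnq1ot1, Mirg, Plagl1 and Zrsr1 did not (adjusted p between 0.0585 and 0.292). Over all genes 2416 passed in Rarα-OE under DESeq2, against 4829 with edgeR. In bulk RNA, fewer cells of a type and less RNA per cell cannot be told apart.

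In the Dlk1-Dio3 domain on chromosome 12, Meg3 and Mirg, noncoding RNAs made from the maternal copy, rose in Rxrα-OE. Meg3, a long noncoding RNA (chr12:109541001-109571726, plus strand), stood at 6.71 and 7.27 CPM in the Rxrα-OE libraries and 0.402 and 0.769 CPM in those of Rarα-OE, against 0.483 and 0.204 CPM in V-OE. Mirg, a noncoding RNA that hosts microRNAs downstream of it, had 53.0 and 60.7 CPM in Rxrα-OE and 7.84 and 7.95 CPM in Rarα-OE, against 4.35 and 5.71 CPM in V-OE. Both Rxrα-OE libraries lay far above every other library of the table for these 2 genes. Rian, another noncoding RNA made from that copy, missed the filter on low counts, with 23 and 4 counts in Rxrα-OE and 0 in both Rarα-OE libraries, against 1 and 0 in V-OE. It was called in Rxrα-OE without the filter (edgeR, log2FC 4.37, adjusted p = 0.000428) and by DESeq2 (4.72, adjusted p = 0.0388). The log2FC over V-OE was 4.34 ± 0.45 (SE, adjusted p = 3.22e-12) for Meg3 and 3.49 ± 0.14 (adjusted p = 1.36e-28) for Mirg in Rxrα-OE, and 0.63 ± 0.19 (adjusted p = 0.00893) for Mirg in Rarα-OE, a call that was lost without V-OE replicate 1. Rxrα-OE also exceeded Rarα-OE itself, with a log2FC of 3.60 ± 0.41 for Meg3 and 2.85 ± 0.13 for Mirg (adjusted p = 9.62e-11 and 9.76e-26). Genes within 10 Mb had a median log2FC of 0.12 around Meg3 in Rxrα-OE. Dio3, which encodes the deiodinase that inactivates thyroid hormone, went another way, with 2.01 and 3.46 CPM in Rarα-OE and 0.578 and 0.761 CPM in Rxrα-OE, against 0.483 and 1.33 CPM in V-OE. Its rise in Rarα-OE (log2FC 1.51 ± 0.49, adjusted p = 0.0154) did not hold without V-OE replicate 1 or without Rarα-OE replicate 2.

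In the Kcnq1ot1 domain on distal chromosome 7, Phlda2 and Cdkn1c, both transcribed from the maternal copy, fell in Rxrα-OE. Phlda2, which limits placental growth, had 5.67 and 4.48 CPM in Rxrα-OE and 13.4 and 13.6 CPM in Rarα-OE, against 23.2 and 21.4 CPM in V-OE. The 3 groups did not overlap, and the log2FC was -2.15 ± 0.18 in Rxrα-OE and -0.73 ± 0.15 in Rarα-OE (adjusted p = 6.44e-16 and 0.000189). Cdkn1c, the cell cycle inhibitor p57, had 10.1 and 9.47 CPM in Rxrα-OE and 40.4 and 39.6 CPM in Rarα-OE, against 39.7 and 39.0 CPM in V-OE. Its log2FC was -2.01 ± 0.12 in Rxrα-OE (adjusted p = 2.12e-21) and 0.02 ± 0.10 in Rarα-OE, and between the receptors -2.04 ± 0.12 for Rxrα-OE over Rarα-OE (adjusted p = 2.78e-21). Kcnq1ot1, the paternal noncoding RNA of the domain, was lower with both receptors, at 12.4 and 10.7 CPM in Rxrα-OE and 12.8 and 11.2 CPM in Rarα-OE, against 17.15 and 18.97 CPM in V-OE (log2FC -0.66 ± 0.16 and -0.59 ± 0.16), and under DESeq2 the Rarα-OE call was lost (adjusted p = 0.0767). Slc22a18, a maternal transporter gene of the domain, had a log2FC of -0.69 ± 0.49 in Rxrα-OE and did not pass (adjusted p = 0.230). Cd81, a tetraspanin gene, rose in Rxrα-OE (log2FC 0.39), and Ascl2, a trophoblast transcription factor gene, rose in Rarα-OE (log2FC 0.72), a call that was lost without V-OE replicate 1 and without Rarα-OE replicate 2. Ascl2 had 5.73 and 7.05 CPM in Rarα-OE, against 3.02 and 4.59 CPM in V-OE. The median log2FC of the 122 tested neighbours of Cdkn1c and Phlda2 was -0.03 in Rxrα-OE. Strand use in counting is not given in the sources used here, so reads from bases shared with a gene model on the other strand cannot be told apart. Such bases make up 1.2% of the exon bases of Kcnq1ot1, which lies within Kcnq1, and 30.65% of those of Cdkn1c.

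The Peg10 and Peg3 domains rose in part. Sgce, the ε-sarcoglycan gene that shares a promoter region with Peg10, had 18.9 and 24.5 CPM in Rxrα-OE and 14.8 and 15.8 CPM in Rarα-OE, against 7.01 and 6.53 CPM in V-OE. Both overexpression groups lay above the vector control, with a log2FC of 1.69 ± 0.17 in Rxrα-OE and 1.17 ± 0.18 in Rarα-OE (adjusted p = 6.93e-13 and 4.27e-07). Peg10 itself moved less, with a log2FC of 0.59 ± 0.04 in Rxrα-OE and 0.28 ± 0.04 in Rarα-OE. Zim1, a maternal zinc finger gene beside Peg3, had 12.8 and 11.8 CPM in Rxrα-OE and 5.22 and 3.97 CPM in Rarα-OE, against 3.14 and 3.06 CPM in V-OE, a log2FC of 1.99 ± 0.23 in Rxrα-OE (adjusted p = 6.75e-11). Its neighbours Peg3, a paternal zinc finger gene (log2FC 0.19), and Usp29, a deubiquitinase gene (log2FC -0.53), passed in opposite directions in Rxrα-OE, and both calls were lost without V-OE replicate 1 and without Rxrα-OE replicate 2, that of Peg3 also without Rxrα-OE replicate 1. Under DESeq2 neither passed (adjusted p = 0.255 for Peg3 and 0.228 for Usp29).

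In the Snrpn domain on chromosome 7, which is lost in Prader-Willi and Angelman syndromes in humans, genes moved both ways in Rxrα-OE. Ndn, a neuronal growth suppressor gene, had 16.4 and 18.2 CPM in Rxrα-OE and 7.94 and 6.15 CPM in Rarα-OE, against 5.43 and 6.42 CPM in V-OE (log2FC in Rxrα-OE 1.54 ± 0.18, adjusted p = 2.34e-10). Snrpn, which encodes a splicing protein, and Ube3a, a ubiquitin ligase gene, fell by 0.91 and 1.09 on the log2 scale in Rxrα-OE. In Rarα-OE Ube3a fell by 0.37 and was the 1 called gene of the 6 in this domain. Snrpn shares part of its exons with Snurf and Ube3a with Snhg14, so their reads may be split between gene models.

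Of the genes alone in their domain, Slc38a4 had the most counts behind it. It stood at 1044 and 1023 CPM in Rxrα-OE and 394 and 392 CPM in Rarα-OE, against 279 and 300 CPM in V-OE. The 3 groups were apart, with a log2FC of 1.83 ± 0.04 in Rxrα-OE and 0.44 ± 0.04 in Rarα-OE (adjusted p = 1.67e-40 and 1.38e-12). Sfmbt2, a Polycomb-related gene imprinted in the placenta, rose alike with either receptor. It had 54.2 and 53.5 CPM in Rxrα-OE and 55.6 and 54.3 CPM in Rarα-OE, against 26.7 and 28.8 CPM in V-OE, a log2FC of 0.95 ± 0.09 in Rxrα-OE and 0.98 ± 0.09 in Rarα-OE, and the difference between the 2 receptors was -0.03 ± 0.08 (SE). Airn, the noncoding RNA antisense to Igf2r, had 4.97 and 6.17 CPM in Rxrα-OE and 4.02 and 3.84 CPM in Rarα-OE, against 2.05 and 0.816 CPM in V-OE (log2FC 2.00 ± 0.35 and 1.49 ± 0.37, adjusted p = 1.84e-06 and 0.00151). The Rarα-OE call for Airn was lost without V-OE replicate 2.

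Nnat, a proteolipid gene of the developing brain, had 46.9 and 41.7 CPM in Rxrα-OE and 8.54 and 14.0 CPM in Rarα-OE, against 11.5 and 13.4 CPM in V-OE (log2FC in Rxrα-OE 1.82 ± 0.14, adjusted p = 3.22e-14). Blcap, whose intron holds Nnat, rose less in Rxrα-OE (log2FC 0.62). Zdbf2, a paternally expressed zinc finger gene, was lower with both receptors, with 59.8 and 52.3 CPM in Rxrα-OE and 114 and 110 CPM in Rarα-OE, against 148 and 170 CPM in V-OE. Nap1l5, a nucleosome assembly protein-like gene, rose in Rxrα-OE (log2FC 1.57). Gnas, which encodes a G protein subunit, rose in Rxrα-OE (0.42) and Rarα-OE (0.33). Impact, a translation regulator gene (-0.71), Mcts2, a retrogene copy (-0.69), and Zrsr1, a splicing factor gene (-0.50), fell in Rxrα-OE. Impact (-0.20) and Zrsr1 (-0.29) also fell in Rarα-OE, where Zrsr1 no longer passed when any 1 of the 4 libraries was left out. Plagl1, a zinc finger growth regulator, fell in Rarα-OE (log2FC -0.67) and was higher in Rxrα-OE (0.37), with 8.44 and 8.33 CPM in Rarα-OE and 19.6 and 15.4 CPM in Rxrα-OE, against 13.89 and 12.95 CPM in V-OE. The fall of Plagl1 was lost under DESeq2 (adjusted p = 0.0585). Its rise was lost under DESeq2 (adjusted p = 0.256) and in edgeR without the filter on low counts (adjusted p = 0.0637). The rise was also lost without either V-OE library and without Rxrα-OE replicate 1, whereas Rxrα-OE over Rarα-OE gave 1.05 ± 0.17 (adjusted p = 7.67e-07). Mest, a paternal hydrolase-like gene, and its neighbour Copg2, a coat protein gene that overlaps its 3′ end, rose in Rarα-OE (log2FC 0.34 and 0.21) and fell in Rxrα-OE (-0.26 and -0.21). For Copg2 the Rarα-OE call was lost under DESeq2 (adjusted p = 0.0785) and the Rxrα-OE call with library totals only (log2FC -0.11, adjusted p = 0.0893).

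**Figure D2:**
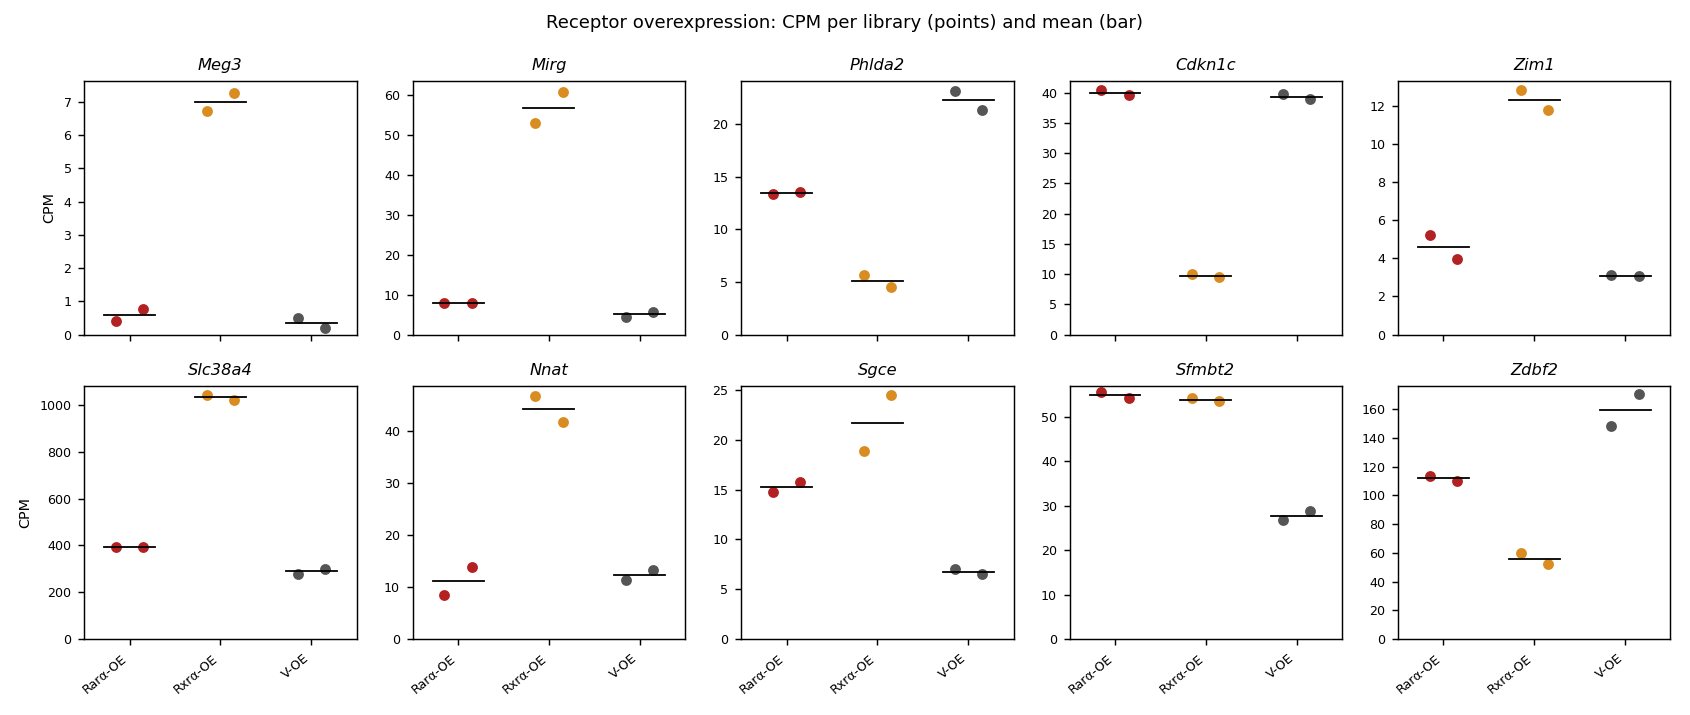
CPM (vertical, from 0) of 10 imprinted genes in each library (points) of Rarα-OE, Rxrα-OE and V-OE, with the mean as a bar (n = 2 libraries each). Meg3, Mirg, Zim1, Slc38a4 and Nnat are highest in Rxrα-OE, Phlda2, Cdkn1c and Zdbf2 lowest there, and Sfmbt2 is as high in Rarα-OE (55.6 and 54.3 CPM) as in Rxrα-OE (54.2 and 53.5 CPM).

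The 2 overexpression groups were also set against each other. Rxrα-OE differed from Rarα-OE at 23 of 37 genes (62.2%), 12 higher and 11 lower, against 47.2% of all genes (23.8% higher and 23.4% lower). A comparison list of 20 genes that set, keep or erase imprints moved in the same libraries. In Rxrα-OE 17 of the 20 were lower than in V-OE and 2 higher, against 29.3% and 30.9% of all genes, with a median log2FC of -0.32, against 0 over all genes. They included the demethylase gene Tet1 (-2.28 ± 0.06), Zfp57 itself (-1.63 ± 0.04) and the methyltransferase cofactor gene Dnmt3l (-1.44 ± 0.04). In Rarα-OE 10 were lower and 3 higher, against 13.9% and 14.7% of all genes, with Dppa3, which guards maternal methylation in the egg, at 1.72 ± 0.45, Tet1 at -0.80 ± 0.05 and the methyltransferase gene Dnmt3b at 0.70 ± 0.04. Neuroectoderm markers summed to 29.4 to 29.5 CPM in Rxrα-OE and 39.4 to 43.7 CPM in Rarα-OE, against 72.8 to 82.6 CPM in V-OE. Of the 5 tested, 2 rose and 2 fell in Rxrα-OE and 1 fell in Rarα-OE. Of 12 naive pluripotency markers 10 fell in Rxrα-OE, and all 11 primitive endoderm markers tested rose in each overexpression group. Their summed level was 1307 to 1314 CPM in Rxrα-OE and 1080 to 1088 CPM in Rarα-OE, against 409 to 439 CPM in V-OE. Of 7 trophoblast markers tested, 5 rose and 1 fell in Rxrα-OE and 6 rose in Rarα-OE, and the list of 10 summed to 669 to 701 CPM in Rxrα-OE and 583 to 631 CPM in Rarα-OE, against 106 to 109 CPM in V-OE, with the placental hormone gene Prl3d1 at 0 counts. Their part in the changes of the imprinted genes was not tested. In the Igf2 axis H19 was higher in both groups, by a log2FC of 5.28 ± 0.05 in Rxrα-OE and 4.46 ± 0.05 in Rarα-OE, and Igf2 by 3.25 ± 0.11 and 3.39 ± 0.11.

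Deletion of the Cyp26 enhancers came with changes in both directions, several of them large. In Cyp26-E1-KO 14 of 40 genes (35%) passed the test against WT (Cyp26), 4 higher and 10 lower, against 25.3% of all 18768 genes (13.1% higher and 12.1% lower). In Cyp26-E2-KO 13 of 40 (32.5%) passed, 5 higher and 8 lower, against 17.5% of all genes (9.28% higher and 8.2% lower). The median log2FC of the 40 genes was -0.15 in each, against -0.01 over all genes in Cyp26-E1-KO and 0 in Cyp26-E2-KO. The comparisons share the WT (Cyp26) libraries. Without Cyp26-E1-KO replicate 2, which stood apart, 18 genes passed in Cyp26-E1-KO, and all 14 of the calls made with it were kept. The added calls were Asb4 (log2FC -2.39), Peg12 (-2.25), Mirg (0.42) and Slc38a4 (-0.15). Over all genes 6217 passed without it and 4741 with it. Without Cyp26-E2-KO replicate 2, 7 genes passed in Cyp26-E2-KO, and without WT (Cyp26) replicate 3, 8 did. Over all genes 2220 and 2099 passed there, against 3280 with every library.

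Sfmbt2 (chr2:10370510-10595253, plus strand) fell most in Cyp26-E1-KO. It had 10.6, 16.9 and 11.0 CPM in Cyp26-E1-KO and 35.5, 38.1 and 38.4 CPM in Cyp26-E2-KO, against 70.9, 69.8 and 68.7 CPM in WT (Cyp26). The 3 groups did not overlap, with the E1 deletion lowest and the wild type highest. The log2FC was -2.45 ± 0.14 in Cyp26-E1-KO and -0.90 ± 0.13 in Cyp26-E2-KO (adjusted p = 8.41e-08 and 0.000369), and -2.69 in Cyp26-E1-KO without its replicate 2. Cyp26-E2-KO exceeded Cyp26-E1-KO by a log2FC of 1.54 ± 0.14 (adjusted p = 3.75e-05). Genes within 10 Mb of Sfmbt2 had a median of -0.09 in Cyp26-E1-KO and -0.01 in Cyp26-E2-KO.

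Plagl1 (chr10:13060504-13131694, plus strand) had 5.27, 6.50 and 7.92 CPM in Cyp26-E1-KO and 8.41, 10.18 and 8.28 CPM in Cyp26-E2-KO, against 24.7, 23.1 and 21.3 CPM in WT (Cyp26). Every deletion library lay below every wild-type library. The log2FC was -1.81 ± 0.15 in Cyp26-E1-KO and -1.37 ± 0.14 in Cyp26-E2-KO (adjusted p = 9.72e-07 and 2.36e-05). Mcts2 had 12.5, 11.6 and 12.0 CPM in Cyp26-E1-KO and 15.7, 17.0 and 16.4 CPM in Cyp26-E2-KO, against 24.6, 29.2 and 27.6 CPM in WT (Cyp26). It fell by 1.17 ± 0.10 and 0.73 ± 0.10 on the log2 scale in Cyp26-E1-KO and Cyp26-E2-KO, and the genes around it on chromosome 2 had medians of -0.22 and -0.24. Mcts2 is a retrogene copy of Mcts1, and reads of so close a relative may be assigned to either.

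Mest (chr6:30723547-30748465, plus strand) had 250, 258 and 241 CPM in Cyp26-E1-KO and 253, 288 and 273 CPM in Cyp26-E2-KO, against 137, 135 and 126 CPM in WT (Cyp26). It was higher in all 6 deletion libraries, with a log2FC of 0.91 ± 0.07 and 1.03 ± 0.07 in Cyp26-E1-KO and Cyp26-E2-KO (adjusted p = 5.40e-07 and 5.05e-07). Copg2, which overlaps its 3′ end on the other strand, fell in Cyp26-E1-KO (log2FC -0.39, adjusted p = 0.00621). The gene models share 912 exon bases, and reads of the 2 genes there cannot be told apart without strand. Peg3 had 87.0, 106 and 85.8 CPM in Cyp26-E1-KO and 82.6, 84.2 and 82.9 CPM in Cyp26-E2-KO, against 60.2, 59.2 and 63.4 CPM in WT (Cyp26), and rose by 0.61 ± 0.08 and 0.45 ± 0.08 on the log2 scale.

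In the Peg10 domain at the start of chromosome 6 the members moved in opposite directions. Peg10 (chr6:4747306-4760517, plus strand) had 1467, 2009 and 1572 CPM in Cyp26-E1-KO and 1426, 1560 and 1472 CPM in Cyp26-E2-KO, against 1090, 1043 and 1020 CPM in WT (Cyp26). Ppp1r9a, which encodes the synaptic scaffold neurabin and lies on the distal side of Peg10, had 24.2, 27.3 and 27.4 CPM in Cyp26-E1-KO and 31.7, 30.6 and 27.2 CPM in Cyp26-E2-KO, against 63.7, 60.2 and 62.3 CPM in WT (Cyp26). In neither gene did a deletion library overlap the wild type. The log2FC in Cyp26-E1-KO and Cyp26-E2-KO was 0.68 ± 0.10 and 0.50 ± 0.10 for Peg10 (adjusted p = 0.000168 and 0.00287) and -1.24 ± 0.09 and -1.06 ± 0.08 for Ppp1r9a (adjusted p = 2.29e-07 and 2.30e-06). Sgce, on the other side of Peg10, had a log2FC of -0.31 ± 0.15 and -0.28 ± 0.15 and did not pass. Asb4, the remaining gene of the domain, passed in neither deletion with every library. Without Cyp26-E1-KO replicate 2 it passed in Cyp26-E1-KO (log2FC -2.39). Most genes at the start of the chromosome were lower in both deletions. The 30 genes outside the list tested in the first 10 Mb of chromosome 6 had a median log2FC of -0.78 in Cyp26-E1-KO and -0.61 in Cyp26-E2-KO, with 80% below 0 in each, while the 20 such genes in the next 10 Mb had medians of -0.13 and 0.15. Ppp1r9a thus lay on the side of its neighbours and Peg10 on the other, and the part of this regional shift in either was not tested.

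Nap1l5 differed between the deletions. It had 0.456, 0.141 and 0.599 CPM in Cyp26-E1-KO and 1.55, 1.63 and 1.70 CPM in Cyp26-E2-KO, against 0.616, 0.333 and 0.634 CPM in WT (Cyp26). The 3 Cyp26-E2-KO libraries lay above all others, with a log2FC of 1.62 ± 0.43 over wild type (adjusted p = 0.0180) and 2.02 ± 0.44 over Cyp26-E1-KO (adjusted p = 0.0197). These counts are low, and the adjusted p over wild type rose to 0.0773 without WT (Cyp26) replicate 2 and to between 0.0502 and 0.0639 without any 1 Cyp26-E2-KO library. That over Cyp26-E1-KO rose to between 0.0624 and 0.0841 without any 1 Cyp26-E2-KO library. Nnat had 2.28, 3.39 and 3.94 CPM in Cyp26-E1-KO and 6.64, 4.82 and 7.14 CPM in Cyp26-E2-KO, against 5.54, 5.39 and 4.64 CPM in WT (Cyp26). It fell in Cyp26-E1-KO (log2FC -0.70 ± 0.21, adjusted p = 0.0281), a call lost without WT (Cyp26) replicate 1, WT (Cyp26) replicate 2 or Cyp26-E1-KO replicate 1, and Cyp26-E2-KO exceeded Cyp26-E1-KO by 0.96 ± 0.21. The call between the deletions was lost without Cyp26-E1-KO replicate 1, without Cyp26-E2-KO replicate 1 or 3, and with only the groups compared in the fit (adjusted p = 0.0553 to 0.116). In all, Cyp26-E2-KO differed from Cyp26-E1-KO at 5 of 40 genes (12.5%), each of them higher in Cyp26-E2-KO, against 4.49% of all genes (2.02% higher and 2.46% lower). The other 2 of the 5 were Cdkn1c (log2FC 0.44) and Mcts2 (0.45). Without Cyp26-E1-KO replicate 2 the count was 9, without Cyp26-E2-KO replicate 1 it was 2, without Cyp26-E2-KO replicate 2 it was 3 and without Cyp26-E2-KO replicate 3 it was 1. Over all genes 1852, 400, 379 and 310 passed in the same order, against 842 with every library.

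The remaining called genes moved less. Cdkn1c had 37.6, 30.8 and 38.6 CPM in Cyp26-E1-KO and 48.1, 47.9 and 49.4 CPM in Cyp26-E2-KO, against 59.3, 62.2 and 56.8 CPM in WT (Cyp26), and fell by 0.74 ± 0.09 and 0.29 ± 0.09 on the log2 scale. Ndn fell by 0.65 in Cyp26-E1-KO and by 0.50 in Cyp26-E2-KO. In Cyp26-E1-KO Phlda2 (-0.66) and Zdbf2 (-0.41) fell and Cd81 (0.21) rose. In Cyp26-E2-KO Gnas (-0.54) and Blcap (-0.24) fell and Impact (0.35) rose. Gnas had 14.7, 11.3 and 10.7 CPM in Cyp26-E2-KO, against 16.1, 17.9 and 19.4 CPM in WT (Cyp26), and these groups did not overlap. The Cdkn1c and Blcap calls in Cyp26-E2-KO were lost without any 1 of the 6 libraries compared. That of Gnas was lost without WT (Cyp26) replicate 2 or 3 or Cyp26-E2-KO replicate 2 or 3, and those of Ndn and Impact without WT (Cyp26) replicate 3 or Cyp26-E2-KO replicate 2. In Cyp26-E1-KO the Phlda2 call was lost without WT (Cyp26) replicate 2, that of Zdbf2 without WT (Cyp26) replicate 1 or 3 or Cyp26-E1-KO replicate 1 or 3, and that of Cd81 without any library but Cyp26-E1-KO replicate 2. Of 20 imprint-keeping genes, 4 were higher and 4 lower in Cyp26-E1-KO and 1 higher and 7 lower in Cyp26-E2-KO, with Zfp57 at -0.49 ± 0.09 in Cyp26-E2-KO. Of 6 mesoderm markers tested 3 rose and 0 fell in each deletion, and the list of 8 summed to 63.6 to 68.1 CPM in Cyp26-E1-KO and 57.7 to 61.0 CPM in Cyp26-E2-KO, against 28.2 to 31.6 CPM in WT (Cyp26). Of 11 primitive endoderm markers 4 rose and 3 fell in Cyp26-E1-KO and 8 rose in Cyp26-E2-KO, and of 12 naive markers 2 rose and 6 fell in Cyp26-E1-KO and 5 fell in Cyp26-E2-KO. Of 7 trophoblast markers tested 5 rose in Cyp26-E1-KO and 2 in Cyp26-E2-KO, and the list of 10 summed to 156 to 162 CPM in Cyp26-E1-KO and 120 to 134 CPM in Cyp26-E2-KO, against 99.6 to 109 CPM in WT (Cyp26), and their part in these changes was not tested.

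**Figure D3:**
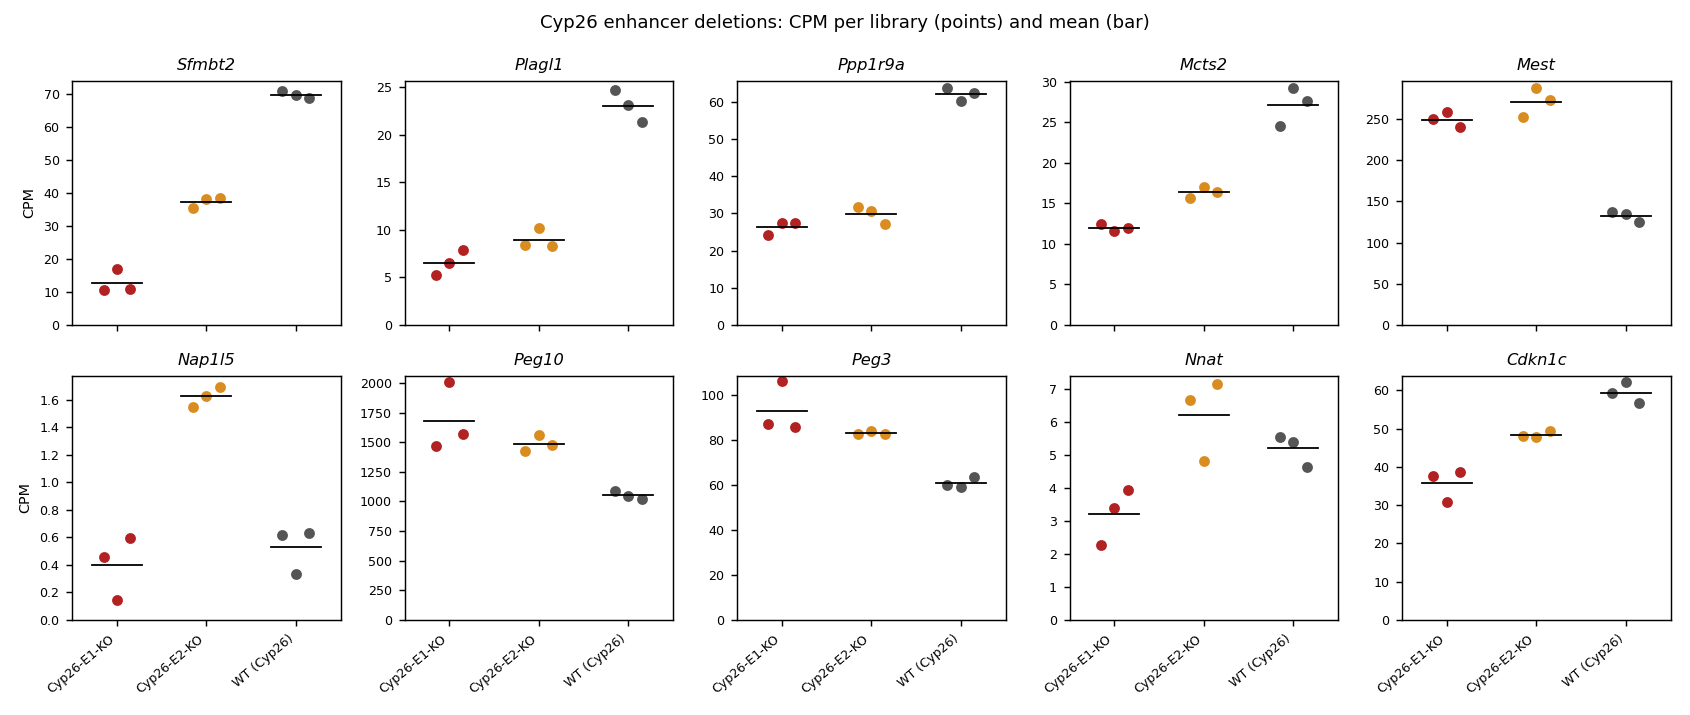
CPM (vertical, from 0) of 10 imprinted genes in each library (points) of Cyp26-E1-KO, Cyp26-E2-KO and WT (Cyp26), with the mean as a bar (n = 3 libraries each). Sfmbt2, Plagl1, Ppp1r9a and Mcts2 are below wild type in both deletions, Mest, Peg10 and Peg3 above it, and Nap1l5 is high in Cyp26-E2-KO (1.55, 1.63 and 1.70 CPM).

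**Figure D4:**
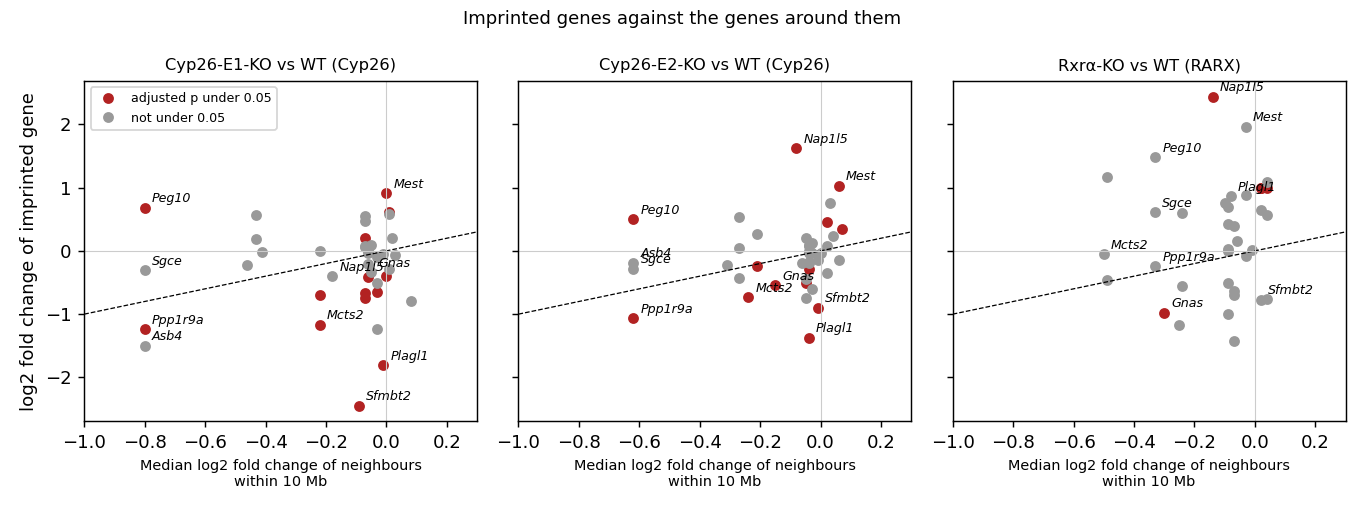
Log2 fold change of each imprinted gene (vertical) against the median of the tested genes outside the list that start within 10 Mb of it (horizontal), for Cyp26-E1-KO, Cyp26-E2-KO and Rxrα-KO over their wild types; the dashed line marks equality and red an adjusted p under 0.05. In Cyp26-E1-KO Peg10 (0.68) and Ppp1r9a (-1.24) share neighbours at -0.80, and Sfmbt2 (-2.45) has neighbours at -0.09.

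Loss of the receptors came with few calls among the imprinted genes, though not with small fold changes. Their median absolute log2FC was 0.7 in Rxrα-KO, 0.42 in RARX-DKO and 0.34 in Rarα-KO, against 0.24, 0.23 and 0.21 over all genes. An unadjusted p under 0.05 in edgeR's test was reached by 14 of 36 genes in Rxrα-KO and 10 of 36 in RARX-DKO. The share of all genes at that limit was not counted, here or below, so these numbers cannot be set against it. In Rxrα-KO 5 of 36 genes (13.9%) passed against WT (RARX), 4 higher and 1 lower, against 2.47% of all 16445 genes (1.28% higher and 1.2% lower). In RARX-DKO 3 of 36 (8.33%) passed, 2 higher and 1 lower, against 2.24% of all genes (1.05% higher and 1.19% lower). In Rarα-KO edgeR's quasi-likelihood test called 0 of 36, against 0.645% of all genes (0.389% higher and 0.255% lower); 8 of the 36 had an unadjusted p under 0.05, and DESeq2 called 1, Peg12. The 3 comparisons share the WT (RARX) libraries. Primitive endoderm markers summed to 631 to 690 CPM in Rxrα-KO, against 438 to 464 CPM in WT (RARX), with 1 of 11 called higher. In RARX-DKO 7 of the 11 fell (median log2FC -1.62), with a sum of 385 to 415 CPM. Naive markers summed to 4224 to 4348 CPM in Rxrα-KO and 4790 to 5354 CPM in RARX-DKO, against 3619 to 3623 CPM in WT (RARX), with 3 and 2 of 11 called higher. Neuroectoderm markers summed to 72.9 to 99.8 CPM in RARX-DKO, against 44.9 to 48.9 CPM in WT (RARX), with 1 of 5 called higher. Fibroblast markers summed to 12.9 to 18.0 CPM in Rxrα-KO and 26.51 to 39.98 CPM in RARX-DKO, against 36.8 to 42.9 CPM in WT (RARX), with 1 of 4 called lower in Rxrα-KO and 1 of 4 higher in RARX-DKO. Of 19 tested genes that set, keep or erase imprints, Tet1 rose in each knockout (log2FC 0.82 in Rarα-KO, 1.32 in Rxrα-KO and 1.09 in RARX-DKO) and Dnmt3l in Rxrα-KO (1.08), and no other was called. The part of these lists in the calls was not tested. Leaving out WT (RARX) replicate 1 left 1 call in Rxrα-KO and 0 in RARX-DKO, and leaving out WT (RARX) replicate 2 left 0 in both. Over all genes the calls in Rxrα-KO dropped as well, to 73 and 21, against 407 with every library, and those in RARX-DKO to 53 and 32, against 368.

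Gnas (chr2:174284320-174346744, plus strand) was the 1 gene that fell in Rxrα-KO. It had 145 and 148 CPM in Rxrα-KO, 358 and 379 CPM in Rarα-KO and 366 and 301 CPM in RARX-DKO, against 284 and 295 CPM in WT (RARX). The Rxrα-KO libraries lay below all others. The log2FC over wild type was -0.98 ± 0.14 (adjusted p = 0.00302), with a median of -0.30 over the 197 genes around it, and the call was lost without WT (RARX) replicate 2 (adjusted p = 0.0894). Against the other knockouts the difference was larger, with -1.33 ± 0.14 for Rxrα-KO over Rarα-KO and 1.18 ± 0.14 for RARX-DKO over Rxrα-KO (adjusted p = 0.000292 and 0.000954). Gnas shares sequence with the antisense RNA Nespas, and reads of the 2 cannot be told apart where they overlap.

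The 4 genes called higher in Rxrα-KO were Nap1l5, Impact, Zdbf2 and Zrsr1. Nap1l5 had 4.42 and 2.92 CPM in Rxrα-KO, 2.35 and 3.38 CPM in Rarα-KO and 3.41 and 2.17 CPM in RARX-DKO, against 0.461 and 0.845 CPM in WT (RARX). All knockout libraries were above the wild type, with a log2FC of 2.44 ± 0.51 in Rxrα-KO (adjusted p = 0.0249), and of 2.09 ± 0.52 in Rarα-KO and 2.06 ± 0.52 in RARX-DKO, where it did not pass (adjusted p = 0.0976 and 0.0603). Impact had 185 and 204 CPM in Rxrα-KO, against 99.2 and 96.7 CPM in WT (RARX), a log2FC of 0.99 ± 0.19 (adjusted p = 0.0166). Zdbf2 had 192 and 114 CPM in Rxrα-KO, against 86.4 and 67.4 CPM in WT (RARX), and Zrsr1 32.1 and 41.0 CPM in Rxrα-KO, against 19.1 and 17.8 CPM in WT (RARX). Both had a log2FC of 0.99 (SE 0.22 and 0.23, adjusted p = 0.0392 and 0.0398). Each of these 4 calls was lost without WT (RARX) replicate 1 and without WT (RARX) replicate 2. Those of Nap1l5 and Zdbf2 were also lost without Rxrα-KO replicate 1, and those of Impact and Zrsr1 without Rxrα-KO replicate 2. In edgeR, Zdbf2 was lost with only the groups compared in the fit (adjusted p = 0.0812) and Zrsr1 with library totals only (adjusted p = 0.0606). The log2FC of each stayed above 0 in every fit. Commd1, within which Zrsr1 lies, had a log2FC of 0.64 in Rxrα-KO and did not pass.

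RARX-DKO showed other calls. Nnat had 11.2 and 13.3 CPM in RARX-DKO, 5.88 and 11.2 CPM in Rarα-KO and 10.7 and 7.50 CPM in Rxrα-KO, against 3.23 and 4.84 CPM in WT (RARX), a log2FC of 1.59 ± 0.36 in RARX-DKO (adjusted p = 0.0392). Its host gene Blcap went the other way, with 25.6 and 22.6 CPM in RARX-DKO, against 41.3 and 44.6 CPM in WT (RARX) (log2FC -0.83 ± 0.18, adjusted p = 0.0264). The 244 genes around this pair on chromosome 2 had a median log2FC of -0.34 in RARX-DKO, on the side of Blcap, and its part was not tested. Peg3 had 66.3 and 78.3 CPM in RARX-DKO, against 39.71 and 45.01 CPM in WT (RARX), a log2FC of 0.77 ± 0.18 (adjusted p = 0.0401). Without either WT (RARX) library none of the 3 passed. The calls of Nnat and Blcap were lost without any 1 of the 4 libraries compared, and that of Peg3 also without RARX-DKO replicate 2 (log2FC 0.66).

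The knockouts were also set against each other. Rxrα-KO differed from Rarα-KO at 4 of 36 genes (11.1%), 1 higher and 3 lower, against 5.38% of all genes (2.19% higher and 3.19% lower). Besides Gnas, Peg12, a paternal Frat family gene of the Snrpn domain, was lower, with 0 and 0.762 CPM in Rxrα-KO (0 and 6 counts) and 5.45 and 3.94 CPM in RARX-DKO, against 6.21 and 5.57 CPM in Rarα-KO, while WT (RARX) had 1.198 and 0.9216 CPM. The log2FC was -3.89 ± 0.68 for Rxrα-KO over Rarα-KO (adjusted p = 0.00767) and 3.57 ± 0.69 for RARX-DKO over Rxrα-KO (adjusted p = 0.0147), and with so few counts its size rests on the prior. Leaving out 1 library moved these values to between -8.80 and -2.94 and between 2.62 and 8.48. The far ends came without Rxrα-KO replicate 2, which leaves Rxrα-KO at 0 counts, and are no bound. Peg12 over WT (RARX) was 2.47 ± 0.55 in Rarα-KO and 2.15 ± 0.55 in RARX-DKO and did not pass edgeR's quasi-likelihood test (adjusted p = 0.0654 and 0.0649). It passed in both by DESeq2 (adjusted p = 0.00754 in Rarα-KO and 0.0199 in RARX-DKO), with only the groups compared in the fit (0.00236 and 0.0366) and without the filter on low counts (8.92e-05 and 0.00106). Mkrn3, a paternal ubiquitin ligase gene of the same domain, was lower in Rxrα-KO than in Rarα-KO (log2FC -1.12), and Peg10 higher, with 1046 and 691 CPM in Rxrα-KO, against 279 and 256 CPM in Rarα-KO (log2FC 1.70 ± 0.33, adjusted p = 0.0292). Both of these calls were lost without either Rarα-KO library and without Rxrα-KO replicate 1, and that of Mkrn3 also without Rxrα-KO replicate 2. RARX-DKO differed from Rxrα-KO at 2 of 36 genes (5.56%), Gnas and Peg12, both higher, against 3.5% of all genes (2.01% higher and 1.48% lower). Peg12 was lost there without RARX-DKO replicate 1, where its log2FC was 3.32. The number of calls moved with the library left out, both among the imprinted genes and over all genes. Between RARX-DKO and Rarα-KO edgeR called 0 of 36, against 0.0122% of all genes, with 1 gene at an unadjusted p under 0.05 and 0 calls in DESeq2. A test of whether the RARX-DKO effect differed from both single-knockout effects added gave 0 calls of 36, against 0% of all genes, with 6 genes at an unadjusted p under 0.05 and 1 call in DESeq2, Gnas.

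**Figure D5:**
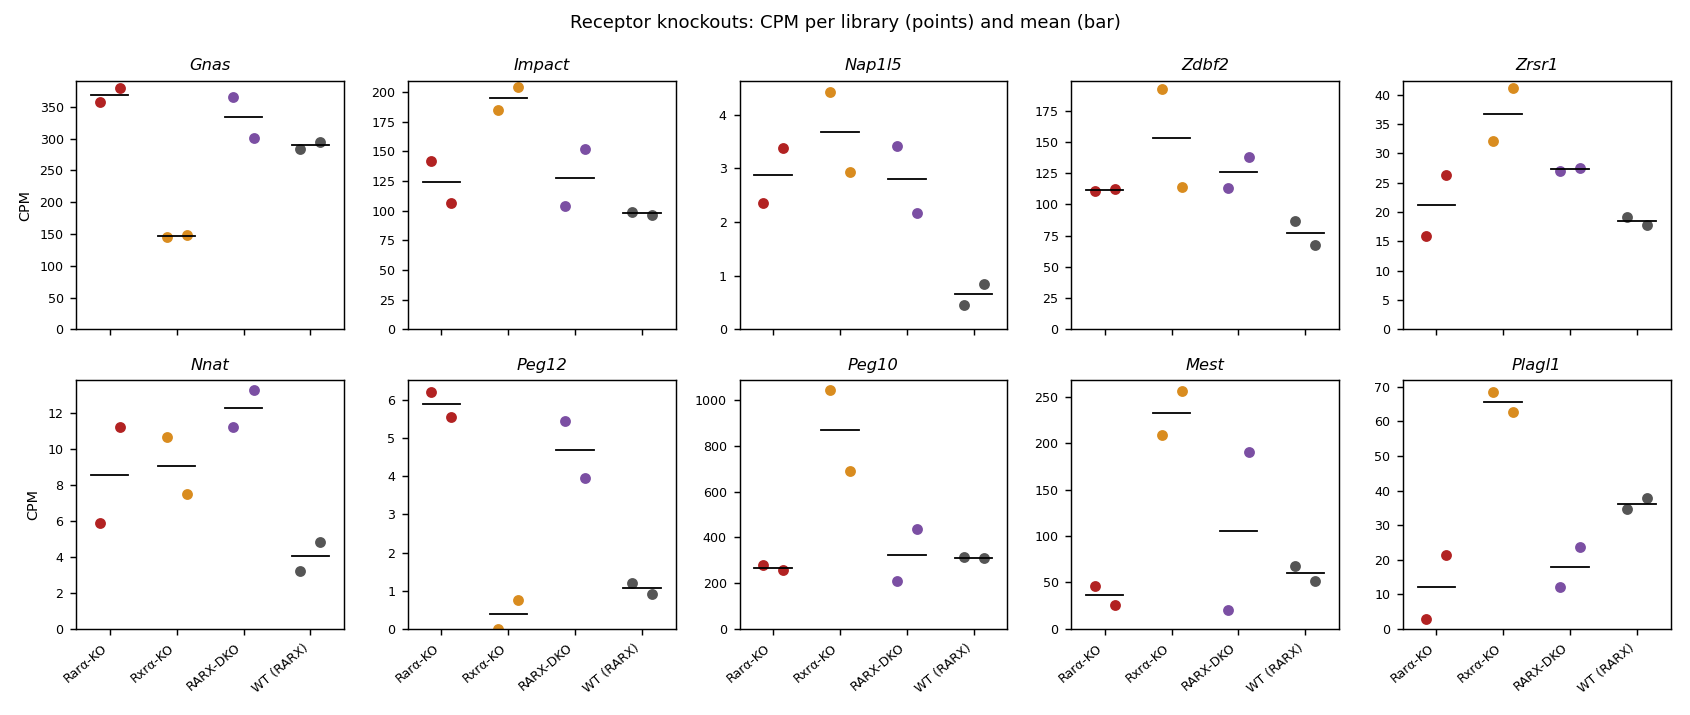
CPM (vertical, from 0) of 10 imprinted genes in each library (points) of Rarα-KO, Rxrα-KO, RARX-DKO and WT (RARX), with the mean as a bar (n = 2 libraries each). Gnas is lowest in Rxrα-KO (145 and 148 CPM), Nap1l5 is above wild type in each knockout, and Mest in RARX-DKO (20.7 and 190 CPM) and Plagl1 in Rarα-KO (2.78 and 21.3 CPM) are spread widely within a group.

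Several imprinted genes differed widely between the 2 replicates of a knockout. Fold spreads and the 2-fold limit below were taken after adding 2 counts to each library, so they differ from ratios of the CPM shown, widely at low counts. For Slc22a18 in Rxrα-KO, at 0.260 and 3.56 CPM, the spread taken in this way was 7.32-fold. Mest had 20.7 and 190 CPM in the 2 RARX-DKO libraries, a 9.11-fold spread on 182 and 1399 counts, 209 and 256 CPM in Rxrα-KO and 46.5 and 25.8 CPM in Rarα-KO, against 67.6 and 51.8 CPM in WT (RARX). Its log2FC of 1.96 ± 1.05 in Rxrα-KO did not pass (adjusted p = 0.471), although the groups did not overlap. With only the groups compared in the fit Mest passed in Rxrα-KO over WT (RARX) (log2FC 1.95, adjusted p = 0.000116) and over Rarα-KO (2.67, adjusted p = 0.00283), and without RARX-DKO replicate 1 Mest passed in RARX-DKO (log2FC 1.68, adjusted p = 0.0263). Plagl1 had 2.78 and 21.3 CPM in Rarα-KO, a 7.18-fold spread, 68.6 and 62.8 CPM in Rxrα-KO and 12.2 and 23.8 CPM in RARX-DKO, against 34.6 and 37.8 CPM in WT (RARX), and without Rarα-KO replicate 2 it passed in Rarα-KO (log2FC -3.70, adjusted p = 0.00268). In Rxrα-KO 3 of the 6 tested genes of the Kcnq1ot1 domain were over 2-fold lower in replicate 1, with 24.1 CPM in replicate 1 and 79.8 CPM in replicate 2 for Cdkn1c, 4.42 and 13.7 CPM for Phlda2 and 0.260 and 3.56 CPM for Slc22a18, a transporter gene of the domain. Kcnq1ot1 was spread the other way, with 11.84 CPM in replicate 1 and 5.591 CPM in replicate 2, and Ascl2 and Cd81 differed by under 2-fold. Without Rxrα-KO replicate 2, Cdkn1c and Phlda2 passed in Rxrα-KO (log2FC -1.60 and -2.03, adjusted p = 0.00927 and 0.0475). Replicates differed by over 2-fold at 7 of the 36 genes (19.4%) in Rxrα-KO, 6 (16.7%) in RARX-DKO and 3 (8.33%) in Rarα-KO, against 1 (2.78%) in WT (RARX). Over all genes the shares were 7.97%, 7.66% and 5.02%, against 2.81% in WT (RARX). In the overexpression table they differed by over 2-fold at 0 of 37 genes in Rxrα-OE and 1 (2.70%) in Rarα-OE, against 4 (10.8%) in V-OE, and over all genes at 2.47% and 2.86%, against 2.98% in V-OE. In the deletion table, with 3 libraries a group, they did so at 6 of 40 genes (15.0%) in Cyp26-E1-KO and 7 (17.5%) in Cyp26-E2-KO, against 3 (7.50%) in WT (Cyp26), and over all genes at 17.4% and 12.0%, against 12.0% in WT (Cyp26). Whether the knockout replicates are separate clones is not given in the sources used here, and no allele or methylation data were analysed here.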

How the data were processed

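RNA was measured by RNA-seq in 23 of the 75 samples; the 4C-seq, H3K27Ac and input samples were not used here. The authors deposited 3 tables of raw counts per gene, not normalized. Per the submitters' processing notes, HISAT2 2.1.0, HTSeq 0.9.1, DESeq2 1.18.1 and the mm10 build were used; the strand setting of counting is not given in the sources used here. The column codes Ac and b of the deletion table were matched to Cyp26-E1-KO and Cyp26-E2-KO from the labels, a match that is unsure.

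Each table was fitted whole with edgeR 4.0.16 (quasi-likelihood test, robust, TMM scaling, R 4.3.3), with all its groups in one fit, after filterByExpr with a minimum count of 10. P-values were adjusted by Benjamini and Hochberg over all genes tested, with a threshold of 0.05. CPM are edgeR's cpm values over the TMM-scaled library size. The scripts were tested on simulated data. Neighbours are the tested genes outside the list that start within 10 Mb. The p-values rest on the spread between the 2 or 3 libraries of a group. That spread was estimated over all groups of a table together and drawn towards that of other genes. Alternatives were library totals only, no filter, DESeq2 1.42.0, the replicate block, only the groups compared, an absolute log2FC of at least 1 and leaving out each library. The members and the comparison lists were chosen with earlier results of these data known. By rule, up to 8 called genes per mutant against its control, those with the largest absolute log2FC, are given in full and other called genes by log2FC, with up to 3 called genes of each comparison list; genes described for their replicate spread were chosen after their values were seen. Coordinates are from GENCODE on mm10.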

Additional observations from a re-analysis of the deposited data

How the results depend on the processing

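No alternative turned the direction of a called gene: of the single-gene values under an alternative, 956 stayed on their side of the threshold, 143 lost the call and 0 changed sign, 104 of the lost ones by leaving out a library. Without the filter on low counts the counts of called genes were 4 in Rarα-KO, 12 in Rxrα-KO, 6 in RARX-DKO, 11 in Rxrα-KO over Rarα-KO, 7 in RARX-DKO over Rxrα-KO, 2 for RARX-DKO against both single effects added (additivity), and 8 in Cyp26-E2-KO over Cyp26-E1-KO. Calls over all genes moved too, to 551 in Rarα-KO, 1084 in Rxrα-KO and 981 in RARX-DKO, against 106, 407 and 368 with the filter. For Rxrα-KO over Rarα-KO, RARX-DKO over Rxrα-KO, additivity and Cyp26-E2-KO over Cyp26-E1-KO they moved to 1840, 1366, 115 and 1384. With the filter these were 885, 575, 0 and 842. With DESeq2 the called imprinted genes were 1 in Rarα-KO, 5 in RARX-DKO, 9 in Rxrα-KO over Rarα-KO and 4 in RARX-DKO over Rxrα-KO. They were 1 for additivity and 11 in Rarα-OE. Over all genes the calls were 258, 574, 1126, 789, 40 and 2416 in that order, against 106, 368, 885, 575, 0 and 4829 with edgeR. With only the groups compared in the fit, 4 imprinted genes were called in Rarα-KO, 8 in Rxrα-KO and 5 in RARX-DKO. There was 1 in RARX-DKO over Rxrα-KO and 2 in Cyp26-E2-KO over Cyp26-E1-KO. Over all genes the calls were 588, 586, 329, 30 and 339, against 106, 407, 368, 575 and 842 with all groups in the fit. With an absolute log2FC of at least 1 also asked, 1 imprinted gene was called in Rxrα-KO and 1 in RARX-DKO. The count was 3 in Rarα-OE, 13 in Rxrα-OE and 12 in Rxrα-OE over Rarα-OE. In the deletions it was 4 in Cyp26-E1-KO, 4 in Cyp26-E2-KO and 2 in Cyp26-E2-KO over Cyp26-E1-KO. Over all genes the calls were 225, 191, 903, 3505, 1974, 1043, 483 and 112 in that order. Without this limit they were 407, 368, 4829, 10178, 7979, 4741, 3280 and 842. The cause of these moves was not tested. Leaving out each library gave 11 to 18 called imprinted genes in Cyp26-E1-KO, 7 to 11 in Cyp26-E2-KO and 1 to 9 in Cyp26-E2-KO over Cyp26-E1-KO. Among all genes 3413 to 6217, 1978 to 2220 and 310 to 1852 passed, against 4741, 3280 and 842 with every library. In the knockout and overexpression tables a left-out library leaves 1 in its group, which is then assumed to vary like the others. The number of calls moved there as well, both among the imprinted genes and over all genes. The replicate block gave 5 called imprinted genes in Rxrα-KO, 3 in RARX-DKO, 18 in Rarα-OE, 29 in Rxrα-OE, 14 in Cyp26-E1-KO and 12 in Cyp26-E2-KO. Among all genes it gave 314, 296, 4559, 10005, 4769 and 3289 in that order, against 407, 368, 4829, 10178, 4741 and 3280 without the block. Under the block 3 single-gene calls were lost, Peg10 in Rxrα-KO over Rarα-KO, Cd81 in Cyp26-E1-KO and Blcap in Cyp26-E2-KO. Same-numbered libraries of the knockout table had correlations of their deviations between -0.214 and 0.121. With 2 libraries a group, crossing the numbers only changes the sign of each value. The check therefore cannot decide whether libraries of different groups are paired. Genes at a few counts per library, such as Peg12, Nap1l5 and Meg3, are limited by depth.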

Other observations

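A wider list of 38 imprinted genes, named in imprinting catalogues and outside both the 45 genes and the Igf2 axis, was counted in the same fits. In Rxrα-OE 10 of 26 tested were higher and 9 lower than in V-OE, against 30.9% and 29.3% of all genes, with Xlr4b (log2FC 1.80 ± 0.33) and Xlr3b (1.64 ± 0.19), X-linked genes of the brain, among the higher ones and Adam23 (-1.58 ± 0.08), a neuronal adhesion gene, among the lower. In Rarα-OE 4 of 26 were higher and 4 lower, against 14.7% and 13.9% of all genes, with Adam23 at -0.85 ± 0.08. In Cyp26-E1-KO 6 of 31 were higher and 6 lower than in WT (Cyp26), against 13.1% and 12.1% of all genes, and in Cyp26-E2-KO 3 of 31 were higher and 1 lower, against 9.28% and 8.2%. Tnfrsf23, a decoy receptor gene, rose in Cyp26-E1-KO (1.32 ± 0.21) and Cyp26-E2-KO (1.02 ± 0.21), and Klf14, a transcription factor gene beside Mest, rose in Cyp26-E1-KO (1.93 ± 0.43). In the knockouts, 1 of 28 was called in Rarα-KO and 3 each in Rxrα-KO and RARX-DKO, against 0.645%, 2.47% and 2.24% of all genes. H13, a signal peptide peptidase gene that hosts Mcts2, fell in each knockout, with a log2FC of -1.05 ± 0.17 in Rarα-KO, -0.86 ± 0.17 in Rxrα-KO and -0.99 ± 0.17 in RARX-DKO over the shared WT (RARX) libraries. The 190 tested genes within 10 Mb of Mcts2 were lower as well, with medians of -0.42, -0.5 and -0.41 in the same order. The part of this regional shift in the fall of H13 was not tested. Adam23 was higher in Rxrα-KO (1.03 ± 0.18) and RARX-DKO (1.02 ± 0.18), where it stood opposite to its fall in the overexpression groups.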
